A study of Mus musculus with 8 samples.

Results

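The respiratory chain and the ATP synthase were represented by 148 probe sets of 79 nuclear genes, out of 22626 probe sets and 12393 singly named genes on the Affymetrix mouse array. A gene was included when its symbol named a subunit of complex I (Ndufa, Ndufb, Ndufc, Ndufs and Ndufv followed by a number), complex II (Sdha to Sdhd), complex III (Uqcr genes and Cyc1), complex IV (Cox4 to Cox8) or complex V (Atp5 genes), and when the probe set carried that symbol alone. The RNA came from C2C12 mouse myotubes, formed by a myoblast line that fuses into multinucleated fibres once serum is lowered to 2% horse serum. Control cultures (arrays A to D) received fresh medium every 48 h up to harvest on day 8 of differentiation. Starved cultures (arrays E to H) were treated the same way for the first 4 days and then kept for 4 days without a change of medium. C2C12 is a single immortal line without nerve, vessels or load, and the labels do not name separate cultures behind the replicates. The p-values therefore reflect only the spread among these arrays, part of which may be technical.

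Complexes I to IV pass electrons from NADH and succinate through coenzyme Q and cytochrome c to oxygen and, except for complex II, pump protons across the inner mitochondrial membrane. Complex V, the ATP synthase, lets these protons flow back and makes ATP. Skeletal muscle is rich in all of them, and several complex IV subunits exist in a general form and in a form found mainly in heart and skeletal muscle, which replaces the general one as muscle matures.

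Values below are log2 signals after quantile normalisation, and a gene was read from its brightest tested probe set. Fold changes of starved over control are log2 differences ± the standard error of limma's linear model, with 4 arrays per group and Benjamini-Hochberg adjusted p-values over all 13575 probe sets tested, called at an adjusted p under 0.05. Of the 79 genes 77 were bright enough to be tested. Cox7c, whose signals lay between 4.29 and 5.85, and Cox6b2, a testis form, whose signals lay between 6.32 and 6.99, were not.

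In quantile-normalised values of starved myotubes, 69 of the 77 tested subunit genes had a 95% interval within 1.5-fold of control in either direction. This count was not made in unscaled values, where the median change of the subunits was -0.29. Cox6a2 and Cox8a of complex IV rose, with the call lost in 1 and 2 of 19 alternative processings. Atp5g1 of complex V was called higher, but lost that call in 11 of 19 alternatives. Cox7a1 of complex IV was called lower, but lost that call in 6 of the 18 alternatives that tested it. Ndufb10 of complex I and Atp5o of complex V rose in quantile-normalised values but were below 0 in unscaled ones, where the median of all genes was -0.34. The other 71 genes did not pass the test. The 6 calls were 7.79% of the subunits, beside 11.2% of all 8352 genes tested. By direction, 4.25% of all genes tested were called higher and 6.93% lower. With the deposited values left unscaled the split was 0 higher and 7 lower, with median centring 1 higher and 1 lower, and with 75th percentile centring 2 higher and 1 lower. The arrays of the groups did not overlap for 5 higher and 2 lower genes, which is 9.09% of the subunits, beside 18.5% of all genes, 8.20% higher and 10.3% lower.

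The changes of the subunit genes had a narrower spread between quartiles than those of all genes. Their log2 fold changes had quartiles of -0.07 and 0.14, against -0.16 and 0.18 for all genes tested. They ran from -0.61 to 0.60, against -2.97 to 2.89, but extremes widen with the number of genes (77 against 8352) and do not compare spread. The median was 0.03 for the subunits and 0.01 for all genes. In unscaled values these medians were -0.29 and -0.34, so the subunits lay 0.05 above the median of all genes there. The interval within 1.5-fold was found for 89.6% of the subunits, against 63.0% of all genes. The 8 genes whose interval reached further were Ndufb2, Sdhd, Uqcrq, Cox8a, Cox6a2, Cox8b, Cox7a1 and Atp5g1. The subunits were also brighter than other genes, with a median log2 signal of 11.3 against 8.50, and had a smaller standard error, with a median of 0.0862 against 0.139. The part of brightness in the narrower spread was not tested.

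**Figure D1:**
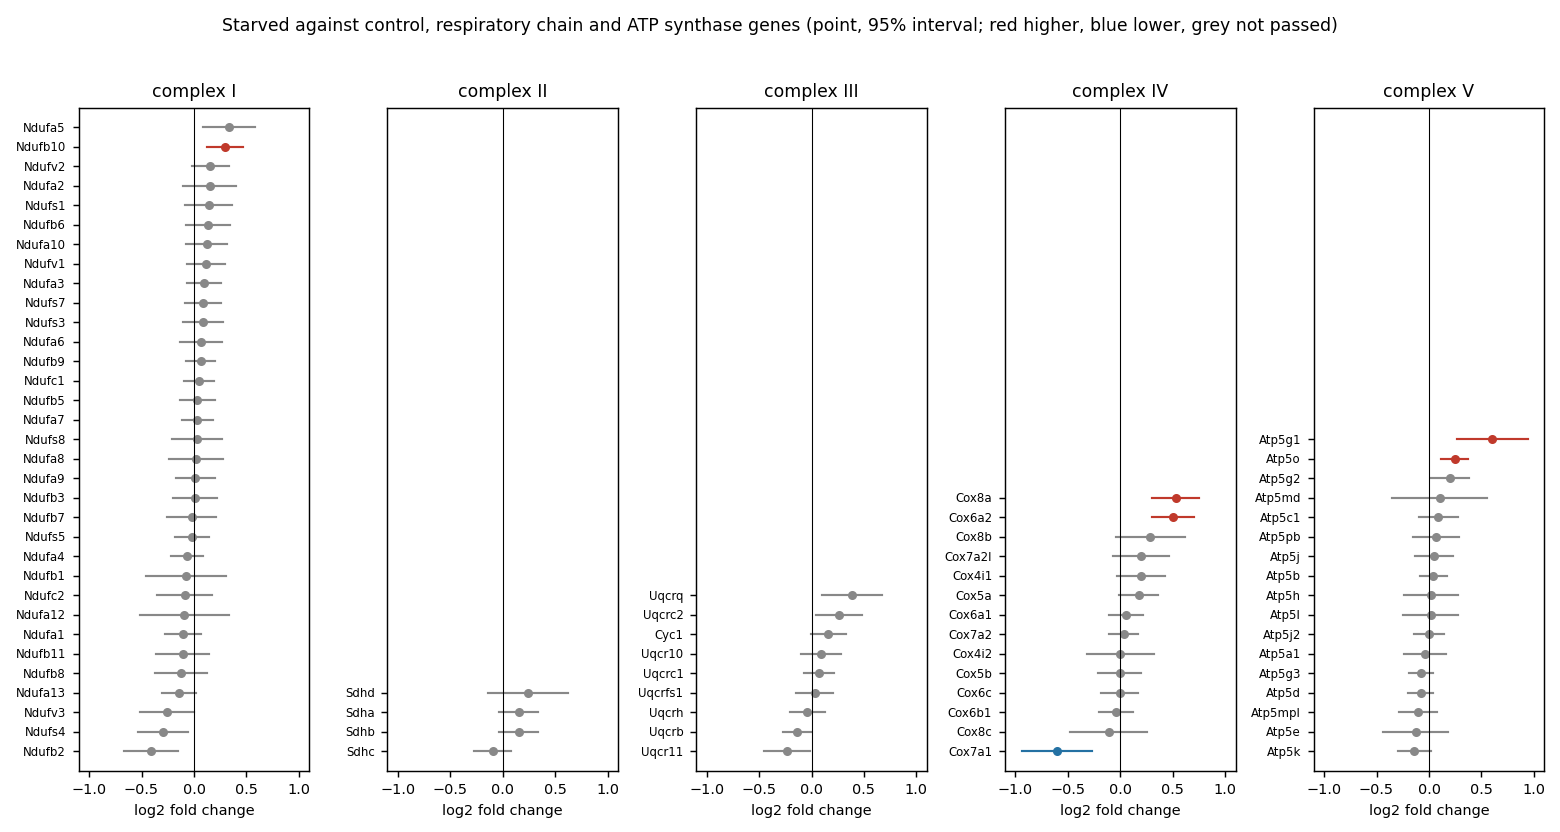
Log2 fold change of starved over control for each of the 77 tested genes, by complex (point, fitted value; bar, 95% interval; red, called higher; blue, called lower; grey, not called). Complexes II and III hold no called gene, and the values run from -0.61 for Cox7a1 to 0.60 for Atp5g1; in unscaled values the changes of Ndufb10 and Atp5o were below 0.

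The arrays themselves were compared before the genes. Trimmed mean intensities ranged from 243 to 455, and all starved arrays except H (366) lay below the dimmest control (317). Correlations of log2 signals were 0.958 to 0.974 within groups and 0.943 to 0.964 between groups. Control B stood apart in its Gapdh control probe sets, with a 3' to 5' log2 ratio of 1.40, whereas this ratio was between -0.23 and -0.04 on every other array. Control B was also the array with the largest deviation for 17 of 77 subunits, against 4 to 11 for each other array. Without control B 6 subunits were called higher (Cox6a2, Cox8a, Atp5g1, Atp5o, Ndufb10 and Uqcrq) and none lower, since Cox7a1 lost its call (-0.55, adjusted p = 0.0604). Leaving out 1 array at a time gave 2 to 6 higher and 0 to 2 lower calls, and Cox6a2 and Cox8a were called higher in each of these 8 fits.

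The labelled cell type was checked against its markers. Myotube markers such as Ckm and Acta1 were bright on every array, with a mean of 12.92 to 12.98 over 16 genes. Of these 3 lay above 0 and 13 below, with a median change of -0.09. The test called 3 of the 16 (18.8%, beside 11.2% of all genes). Among them Myh8 rose (1.16 ± 0.08), and Des (-0.22 ± 0.05) and Tnnt1 (-0.16 ± 0.04, but 0.024 with 75th percentile centring) were called lower. Des lost its call in 5 alternatives, among them median centring (-0.088, adjusted p = 0.737) and 75th percentile centring (-0.048, adjusted p = 0.847). Tnnt1 lost its call in all 3 other scalings, with no brightness filter, with eBayes without trend and without any one of arrays A, C, D, E, F and H (-0.16 to -0.14, adjusted p = 0.0911 to 0.126). The 6 tested markers of dividing or undifferentiated myoblasts had a mean of 7.91 to 8.17 in control and 7.21 to 7.71 in starved arrays, and Rrm2 (-0.83 ± 0.09) and Cdk1 (-0.82 ± 0.13) among them fell, while Myf5, Ccnb2 and Birc5 were too dim to be tested. The 9 tested fibroblast markers had a mean of 9.37 to 9.42 in control and 8.95 to 9.01 in starved arrays, with Postn (-2.42 ± 0.15), Pdgfrb (-1.83 ± 0.11) and Col1a1 (-1.15 ± 0.08) lower and Dcn (0.94 ± 0.14, not called in unscaled values) higher; Fap was too dim. All 6 tested myoblast markers lay below 0, and 2 of them were called (33.3%, beside 11.2% of all genes). Of the 9 fibroblast markers 4 lay above 0 and 5 below, with a median change of -0.08, so these did not move together. The called ones were 4 of these 9 (44.4%, beside 11.2% of all genes). The means of the myoblast and fibroblast lists thus differed between the groups, and their part in the subunit changes was not tested. C2C12 is a single line, and signal of the fibroblast list does not show that fibroblasts were present. In these bulk samples fewer cells in a given state and less RNA per cell cannot be told apart.

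Complex I, which oxidises NADH and is the largest of the chain, had 33 genes on 65 probe sets, all of them tested. Ndufb10, an accessory subunit of its membrane arm, was called higher, and the other 32 genes were not called (3.03% called, beside 11.2% of all genes). The median change of the 33 genes was 0.03 (-0.33 in unscaled values and -0.01 with median centring), with a range from -0.41 to 0.33. Ndufb10 read 10.49, 10.73, 10.54 and 10.58 on arrays A to D, against 10.95, 10.87, 10.94 and 10.77 on arrays E to H, the order kept below. All 4 starved arrays were above all 4 controls. Ndufb10 rose by 0.30 ± 0.08 (95% interval 0.12 to 0.47, 1.23-fold, adjusted p = 0.0357), but it was -0.08 in unscaled values (adjusted p = 0.769). Its call was also lost with median or 75th percentile centring, with eBayes without trend, and without any one of arrays A, C, D, E, F and G (0.27 to 0.30, adjusted p = 0.0809 to 0.1).

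The ends of the complex I range were small subunits that did not pass the test. Ndufb2, an accessory subunit of the membrane arm, read 10.67, 11.06, 11.04 and 10.93 in control and 10.57, 10.29, 10.75 and 10.47 in starved arrays. Starved G lay above control A, so the groups overlapped, and the difference of -0.41 ± 0.12 missed the threshold (adjusted p = 0.0504). It passed in 7 of the 19 alternatives, among them without control A (-0.50, adjusted p = 0.0245) and without starved G (-0.48, adjusted p = 0.0286). Ndufa5, an accessory subunit of the matrix arm, read 9.92, 9.97, 9.80 and 9.50 in control and 10.22, 10.18, 10.15 and 9.97 in starved arrays (0.33 ± 0.11, adjusted p = 0.0971). The highest control and the lowest starved array of Ndufa5 read alike to 2 decimals, without overlap. Ndufs4, an accessory subunit near the NADH-binding end whose loss in mice gives a model of Leigh syndrome, was -0.29 ± 0.11 (adjusted p = 0.124). Its controls read 10.17, 10.59, 10.42 and 10.16 and its starved arrays 10.12, 10.10, 10.03 and 9.92, which did not overlap.

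The core subunits that carry electrons through complex I showed no call. Ndufv1, which binds NADH, read 11.47, 11.26, 11.14 and 11.43 in control and 11.50, 11.45, 11.42 and 11.39 in starved arrays (0.12 ± 0.08, adjusted p = 0.44). Ndufs1, the largest iron-sulfur subunit, was 10.02, 10.35, 9.99 and 9.96 in control and 10.28, 10.20, 10.10 and 10.29 in starved arrays (0.14 ± 0.10, adjusted p = 0.46). The groups of both genes overlapped. Ndufs7, which holds the last iron-sulfur cluster before coenzyme Q, differed by 0.08 ± 0.08 (adjusted p = 0.558). Ndufa4, grouped here by its symbol but known as a subunit of complex IV, differed by -0.07 ± 0.07 (95% interval -0.22 to 0.09).

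The 5 probe sets of Ndufa7, an accessory subunit, did not read alike. The brightest (1450818_a_at) differed by 0.03 ± 0.07, and 4 of the 5 lay between -0.02 and 0.05. The fifth (1455749_x_at) was called lower, with 8.18, 8.30, 8.75 and 8.43 in control and 7.29, 6.64, 6.61 and 8.01 in starved arrays (-1.28 ± 0.28, adjusted p = 0.0147). An x in the name marks a probe set with probes that can match other transcripts. Several probe sets were tested for 39 subunit genes, of which 24 had every probe set on 1 side of 0 and 15 did not, and Ndufa7 was the gene whose probe sets differed in sign with a call among them. Over all 136 tested probe sets of the subunits, 7 were called higher and 2 lower (6.62%), beside 10.6% of all probe sets, 4.35% higher and 6.23% lower.

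Complex II, the succinate dehydrogenase shared with the citric acid cycle, had 4 genes on 7 probe sets and no call, beside 11.2% of all genes. Sdha, the flavoprotein that oxidises succinate, read 10.36, 10.39, 10.56 and 10.39 in control and 10.45, 10.53, 10.59 and 10.72 in starved arrays (0.15 ± 0.08, adjusted p = 0.317). Sdhb, the iron-sulfur subunit, read 11.13, 11.39, 11.12 and 11.07 in control and 11.44, 11.31, 11.20 and 11.35 in starved arrays (0.15 ± 0.09, adjusted p = 0.326). The groups overlapped for both. Of the membrane anchors, Sdhc differed by -0.10 ± 0.08 (adjusted p = 0.527), and by 0.19 ± 0.10 in its second probe set. Sdhd read 9.40 in control A and 10.04 to 10.27 in the other controls, and 10.07, 10.30, 10.41 and 10.01 in starved arrays, which gave 0.24 ± 0.17 with a 95% interval from -0.14 to 0.62. The second probe set of Sdhd gave -0.24 ± 0.23, so that the probe sets of both anchors differed in sign, with none called.

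Complex III, which passes electrons from coenzyme Q to cytochrome c, had 9 genes on 16 probe sets and no call, beside 11.2% of all genes. Of its 9 genes 4 had an unadjusted p under 0.05, as had 24.2% of all genes. Its median change was 0.07 (-0.31 in unscaled values). Uqcrq, a small subunit, read 11.26, 11.55, 11.25 and 10.99 in control and 11.77, 11.65, 11.84 and 11.34 in starved arrays. Starved H lay below control B, and the difference of 0.39 ± 0.13 did not pass (adjusted p = 0.0918). It passed without control B (0.48, adjusted p = 0.0263), without starved H (0.49, adjusted p = 0.0306) and with array weights (0.47, adjusted p = 0.0189), while its other tested probe sets gave 0.12 and 0.04. Uqcr11, another small subunit, was at the other end with -0.23 ± 0.10 (adjusted p = 0.19). Its controls read 11.76, 11.90, 11.74 and 11.52 and its starved arrays 11.47, 11.53, 11.71 and 11.31. The electron carriers lay between them. Cyc1, the cytochrome c1, differed by 0.16 ± 0.08 (adjusted p = 0.237) and Uqcrfs1, the Rieske iron-sulfur protein, by 0.03 ± 0.08 (95% interval -0.15 to 0.21). Uqcrc1, a core protein, differed by 0.07 ± 0.06 (95% interval -0.07 to 0.22).

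**Figure D2:**
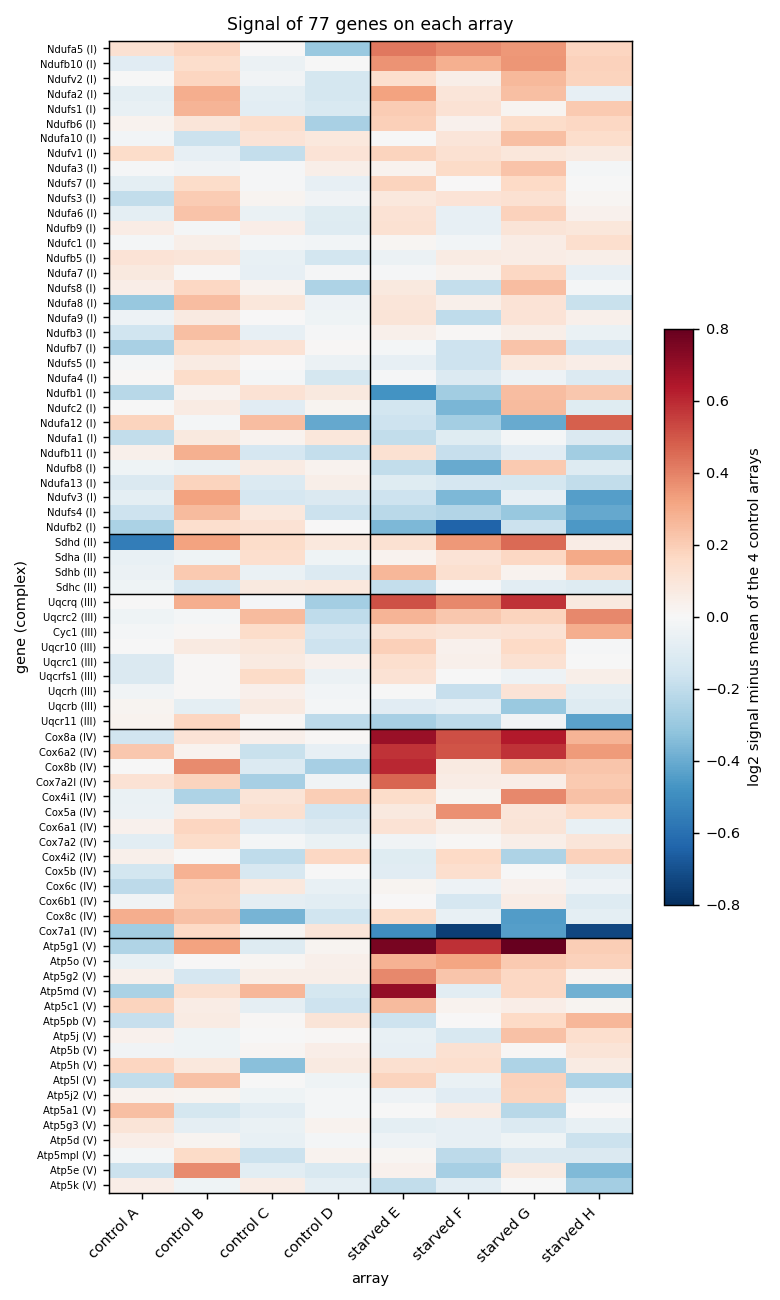
Log2 signal of the 77 tested genes on each array (columns) minus the gene's control mean, by complex and in the order of the fold change (red, above the control mean; blue, below). The starved columns are red or blue throughout at the ends of a block (Cox8a, Cox6a2, Cox7a1), while most rows are pale on all 8 arrays, and control B is red in more rows than the other controls.

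Complex IV, the cytochrome c oxidase, had 16 genes on 32 probe sets, of which 14 genes were tested, 2 were called higher and 1 lower (21.4%, beside 11.2% of all genes). The called genes were isoforms or paired with one. Cox6a2, the heart and muscle form of subunit VIa, which regulates the enzyme, read 11.81, 11.62, 11.42 and 11.53 in control and 12.17, 12.10, 12.18 and 11.93 in starved arrays. All starved arrays lay above all controls. Cox6a2 rose by 0.50 ± 0.09 (95% interval 0.30 to 0.70, 1.41-fold, adjusted p = 0.00451). In unscaled values it was 0.17 (adjusted p = 0.495), and it was called in each other alternative.

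Cox8a, the general form of the smallest subunit, read 10.68, 10.94, 10.87 and 10.84 in control and 11.52, 11.35, 11.47 and 11.10 in starved arrays. The groups did not overlap, with starved H nearest to the controls. Cox8a rose by 0.53 ± 0.10 (95% interval 0.31 to 0.75, 1.44-fold, adjusted p = 0.00597). This probe set (1448222_x_at) can match other transcripts, and the second probe set of Cox8a (1416112_at) gave 0.54 ± 0.14 (adjusted p = 0.0319). The call of Cox8a was lost in unscaled values (0.16, adjusted p = 0.504) and with median centring (0.48, adjusted p = 0.0728).

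Cox7a1, the heart and muscle form of subunit VIIa, moved the other way. It read 7.46, 7.90, 7.75 and 7.83 in control and 7.24, 6.98, 7.30 and 7.0 in starved arrays, with no overlap. The change of Cox7a1 was -0.61 ± 0.15 (95% interval -0.94 to -0.27, 1.52-fold lower, adjusted p = 0.0256). The probe set was dim, so the fold change is understated by the offset. The value stayed below 0 in each alternative in which it was tested (-0.93 to -0.52), but the call was lost with no brightness filter (adjusted p = 0.0558) and without any one of arrays B, C, D, F and H (-0.60 to -0.55, adjusted p = 0.0569 to 0.0802).

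The isoform partners were not called. Cox6a1, the general partner of Cox6a2, read 12.34, 12.48, 12.22 and 12.19 in control and 12.43, 12.36, 12.41 and 12.25 in starved arrays (0.05 ± 0.07, 95% interval -0.11 to 0.21). Cox7a2, the general partner of Cox7a1, read 12.42, 12.65, 12.49 and 12.45 in control and 12.47, 12.51, 12.55 and 12.60 in starved arrays (0.03 ± 0.06, 95% interval -0.10 to 0.17). The groups of both overlapped. Cox8b, the heart and muscle partner of Cox8a, read 10.10, 10.49, 9.99 and 9.84 in control and 10.71, 10.17, 10.34 and 10.33 in starved arrays (0.28 ± 0.15, adjusted p = 0.284), with control B above 3 of the starved arrays.

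Whether 2 isoforms moved apart was tested on their difference within each array, which compares changes and not levels. For Cox6a2 minus Cox6a1 the difference averaged -0.72 ± 0.146 in control and -0.27 ± 0.0372 in starved arrays (SD, n = 4 each), a shift of 0.45 without overlap. Cox7a1 minus Cox7a2 shifted by -0.64, also without overlap. For both, the two-sided exact permutation p was 0.0286, the smallest that 70 labellings of 8 arrays allow, and 0.0571 after adjustment over the 4 pairs. Cox8b minus Cox8a shifted by -0.24 (exact p = 0.171, adjusted 0.229) and Cox4i2 minus Cox4i1 by -0.20 (exact p = 0.4). No pair thus passed after adjustment. The muscle forms of subunits VIa and VIIa lay on opposite sides of 0 in this measure, Cox6a2 above its partner's change and Cox7a1 below, and they did so in each of the 14 alternatives in which the pairs were computed (0.40 to 0.51 and -0.70 to -0.55). Most of these could not have differed in sign. A shift of a whole array cancels in the difference, so unscaled and both centred values gave the same 0.45 and -0.70. Leaving out 1 array cannot change the sign for groups that do not overlap.

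**Figure D3:**
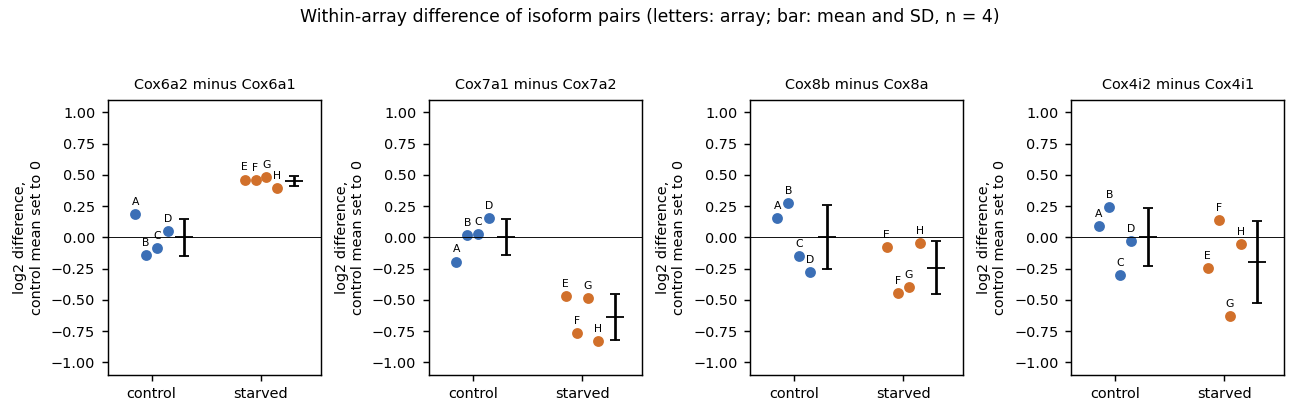
Within-array difference in log2 signal of 4 isoform pairs, with the control mean of each pair set to 0 (points, arrays A to H; bars, mean and SD of 4 arrays). Starved arrays lie apart from control arrays in the pairs Cox6a2 minus Cox6a1 (shift 0.45) and Cox7a1 minus Cox7a2 (shift -0.64), and the groups overlap in the other 2 pairs.

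The remaining complex IV subunits were not called. Cox4i1, the general form of the largest nuclear subunit, read 12.05, 11.85, 12.20 and 12.30 in control and 12.25, 12.12, 12.48 and 12.34 in starved arrays (0.20 ± 0.10, adjusted p = 0.286). Its partner Cox4i2, a form known from lung and from oxygen-dependent expression, read 7.42 to 7.85 over the 8 arrays (-0.00 ± 0.15, 95% interval -0.32 to 0.32). Cox5a differed by 0.18 ± 0.08 (adjusted p = 0.234) and Cox5b by -0.01 ± 0.09 (95% interval -0.21 to 0.20). The tested probe sets of Cox5a ran from -0.10 to 0.18 and those of Cox5b from -0.12 to 0.20. Cox7a2l, a relative of Cox7a2 that joins complexes III and IV into supercomplexes, differed by 0.20 ± 0.12 in its brightest probe set (adjusted p = 0.35). A dimmer probe set of Cox7a2l (1432263_a_at) was called higher, with 10.73, 10.80, 10.48 and 10.85 in control and higher values in all 4 starved arrays, up to 11.28 in E (0.39 ± 0.10, adjusted p = 0.0282), and the third gave 0.35.

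Complex V had 17 genes on 28 probe sets, all tested, of which 2 were called higher and none lower (11.8%, beside 11.2% of all genes). The median change was 0.02 (-0.29 in unscaled values, and -0.02 without starved E). The called genes belong to the rotor and to the stalk. Atp5g1 is 1 of 3 genes for subunit c, the proton-carrying ring of the rotor. These genes encode the same mature protein behind different mitochondrial targeting sequences. Atp5g1 read 10.69, 11.25, 10.82 and 10.95 in control and 11.69, 11.51, 11.80 and 11.12 in starved arrays. Starved H lay below control B, so the groups overlapped in that 1 array. Atp5g1 rose by 0.60 ± 0.15 (95% interval 0.27 to 0.94, 1.52-fold, adjusted p = 0.0284). The call was lost in unscaled values (0.23, adjusted p = 0.367), with median (adjusted p = 0.13) or 75th percentile centring (adjusted p = 0.0894), with no brightness filter, with eBayes without trend, and without any one of arrays A, C, D, E, F and G (0.51 to 0.61, adjusted p = 0.0611 to 0.0818).

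The other subunit c genes read differently. Atp5g2 was 11.89, 11.71, 11.89 and 11.89 in control and 12.23, 12.07, 12.01 and 11.88 in starved arrays (0.20 ± 0.08, adjusted p = 0.162). Atp5g3 was 12.93, 12.76, 12.78 and 12.86 in control and 12.75, 12.77, 12.72 and 12.77 in starved arrays (-0.08 ± 0.05, 95% interval -0.19 to 0.04). Both overlapped between groups, and the differences between the 3 genes' changes were not tested.

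Atp5o, the subunit that ties the catalytic head to the peripheral stalk, read 11.61, 11.67, 11.68 and 11.71 in control and 11.95, 11.98, 11.88 and 11.85 in starved arrays. The groups did not overlap and each spanned little. Atp5o rose by 0.25 ± 0.06 (95% interval 0.12 to 0.38, 1.19-fold, adjusted p = 0.0198), but it was -0.11 in unscaled values (adjusted p = 0.64). Its second probe set (1437164_x_at) gave 0.04, and with the mean of both probe sets the change was 0.14 (adjusted p = 0.235). The call of Atp5o was also lost with median or 75th percentile centring, with eBayes without trend, and without any one of arrays A, C, E and F (0.23 to 0.25, adjusted p = 0.0504 to 0.0646).

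The named genes of the catalytic head of the ATP synthase were not called, and their intervals included 0. Atp5b, the catalytic beta subunit, read 12.38, 12.37, 12.42 and 12.46 in control and 12.34, 12.53, 12.42 and 12.51 in starved arrays (0.04 ± 0.06, 95% interval -0.08 to 0.17). Atp5a1, the alpha subunit, differed by -0.04 ± 0.09 (95% interval -0.24 to 0.16), and by -0.20 in its second tested probe set. Atp5c1, the central shaft, differed by 0.09 ± 0.09 (95% interval -0.10 to 0.28, adjusted p = 0.587). At the low end of complex V, Atp5k of the membrane part was -0.14 ± 0.07 (adjusted p = 0.273), with up to 0.19 in another probe set.

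**Figure D4:**
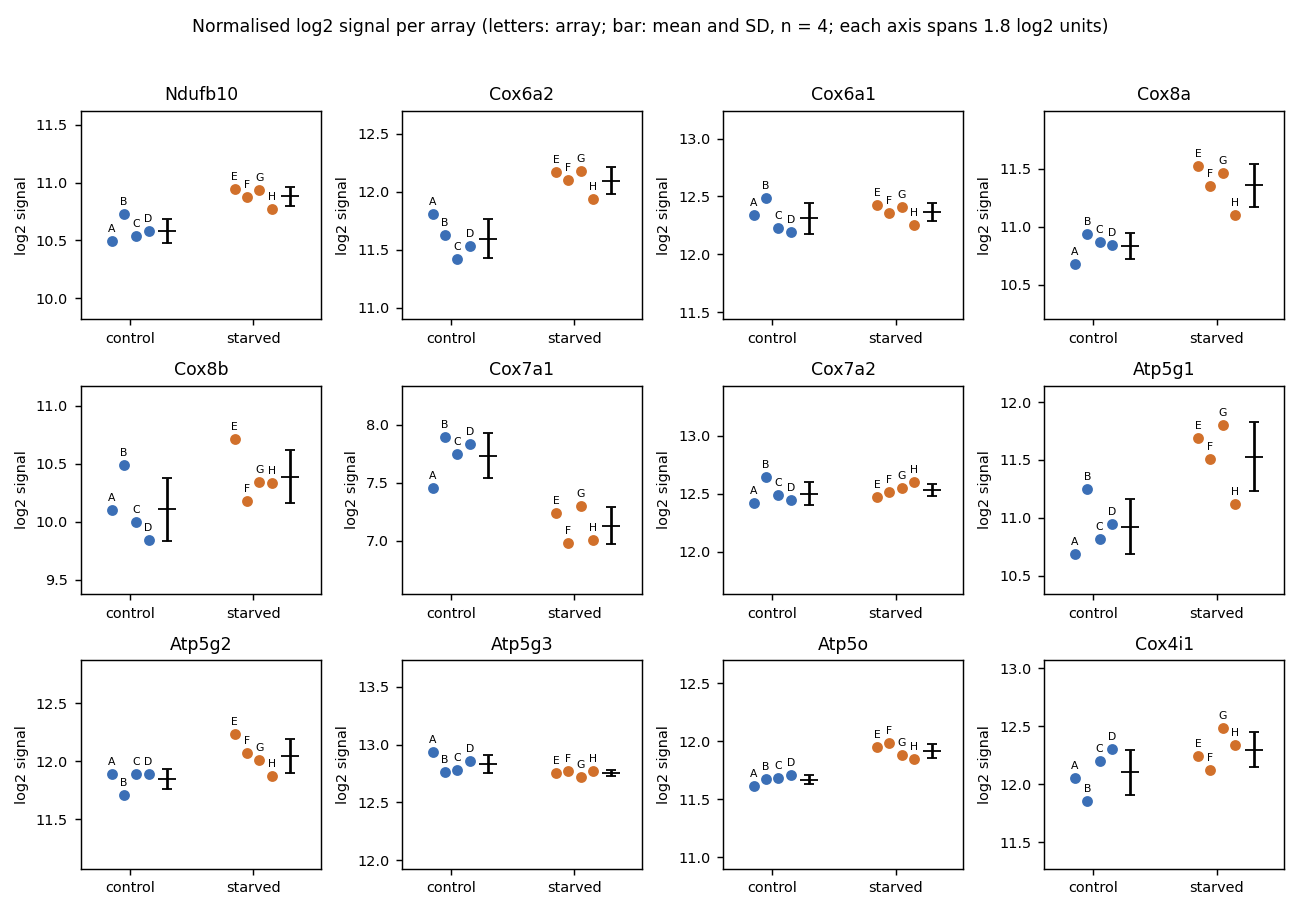
Normalised log2 signal on each array of the 6 called genes and of 6 isoforms or related subunits (letters, arrays; bars, mean and SD of 4 arrays; each axis spans the same log2 range, with its own level). Control and starved arrays separate for Ndufb10, Cox6a2, Cox8a, Cox7a1 and Atp5o, and overlap in the other panels, with Atp5g1 called although starved H lies below control B; in unscaled values Ndufb10 and Atp5o were below 0.

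Promoter sequences are shown to set general and muscle isoforms of complex IV, and a called and an uncalled gene for subunit c, beside each other. Promoter windows of 300 bases, 250 before and 50 after the transcription start, were taken from RefSeq on build GRCm38.p6 and were found for 64 of the 79 genes. They are printed 5' to 3' on the strand of the gene. Capitals mark matches, on either strand, to the motifs of NRF1 (GCGCATGCG), ETS factors such as GABPA (CCGGAAG), YY1 (AAGATGGCG), the estrogen-related receptors (TCAAGGTCA) and C/EBP-ATF pairs (TGATGNAA), all known from studies of mitochondrial or stress genes. The windows lie at chr19:7217567-7217866 for Cox8a, chr7:140900397-140900696 for Cox8b, chr9:79759804-79760103 for Cox7a2, chr7:30183921-30184220 for Cox7a1, chr11:96075582-96075881 for Atp5g1 and chr2:73911277-73911576 for Atp5g3, on the plus strand for Cox7a1 and on the minus strand for the others.
Cox8a: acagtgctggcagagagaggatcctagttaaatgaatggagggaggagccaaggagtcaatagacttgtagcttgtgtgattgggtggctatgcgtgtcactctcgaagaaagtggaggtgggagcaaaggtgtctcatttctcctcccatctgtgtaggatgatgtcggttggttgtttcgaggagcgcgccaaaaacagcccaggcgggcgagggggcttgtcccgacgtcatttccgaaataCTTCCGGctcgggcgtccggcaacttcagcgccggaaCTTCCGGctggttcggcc
Cox8b: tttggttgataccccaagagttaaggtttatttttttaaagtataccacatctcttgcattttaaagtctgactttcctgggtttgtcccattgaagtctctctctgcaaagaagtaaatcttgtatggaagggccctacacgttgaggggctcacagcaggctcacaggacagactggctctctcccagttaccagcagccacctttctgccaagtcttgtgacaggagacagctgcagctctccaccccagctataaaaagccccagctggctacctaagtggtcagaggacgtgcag
Cox7a2: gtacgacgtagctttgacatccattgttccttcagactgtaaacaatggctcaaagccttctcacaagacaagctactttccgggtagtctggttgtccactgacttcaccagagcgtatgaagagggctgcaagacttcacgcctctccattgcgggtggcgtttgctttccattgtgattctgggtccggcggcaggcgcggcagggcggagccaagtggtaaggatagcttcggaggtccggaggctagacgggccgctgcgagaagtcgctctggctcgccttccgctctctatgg
Cox7a1: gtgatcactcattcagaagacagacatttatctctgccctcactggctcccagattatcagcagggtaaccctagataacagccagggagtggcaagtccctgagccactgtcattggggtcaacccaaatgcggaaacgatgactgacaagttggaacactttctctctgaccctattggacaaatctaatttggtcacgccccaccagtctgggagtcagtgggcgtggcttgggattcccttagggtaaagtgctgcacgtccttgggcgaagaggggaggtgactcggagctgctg
Atp5g1: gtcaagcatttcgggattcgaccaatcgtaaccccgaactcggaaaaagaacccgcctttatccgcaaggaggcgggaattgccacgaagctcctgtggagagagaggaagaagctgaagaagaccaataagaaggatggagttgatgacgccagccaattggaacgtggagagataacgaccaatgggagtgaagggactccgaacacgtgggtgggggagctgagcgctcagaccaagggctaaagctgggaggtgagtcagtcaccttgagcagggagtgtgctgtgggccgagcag
Atp5g3: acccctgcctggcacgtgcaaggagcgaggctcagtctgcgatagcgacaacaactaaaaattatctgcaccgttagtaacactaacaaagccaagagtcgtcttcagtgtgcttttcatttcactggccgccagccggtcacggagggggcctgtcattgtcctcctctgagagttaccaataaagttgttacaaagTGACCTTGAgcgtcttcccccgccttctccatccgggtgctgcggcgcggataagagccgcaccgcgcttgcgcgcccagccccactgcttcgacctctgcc

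The window of Cox8b held 2 CpG dinucleotides and that of Cox7a1 held 7, against 19 for Cox8a and 20 for Cox7a2. The muscle form Cox6a2 had no entry among the promoters used here. Of the 64 genes with a window, 3 (Cox8b, Cox7a1 and Ndufc2, 4.69%) had under 10 CpG, against 40.5% of 17492 protein-coding genes. The median was 19 over the subunits and 15 over protein-coding genes. The window of Cox8a held 2 ETS matches and that of Atp5g3 1 receptor match, and the other 4 printed windows held none of the marked motifs. Over all subunits, an ETS match was found in 17 of 64 (26.6%, against 12.9% of protein-coding genes), a YY1 match in 6 (9.38%, against 2.14%), an NRF1 match in 7 (10.9%, against 2.61%) and a receptor match in 2 (3.13%, against 0.377%). No window held a C/EBP-ATF match, against 4.13%, and an E-box (CANNTG) was in 43 (67.2%, against 72.1%). Some genes had several windows, with 69 windows for the 64 subunit genes and 21263 for the 17492 protein-coding genes. Such a gene was counted by the highest value among its windows, for CpG and for motifs. These are matches of letters, with no test, and no binding was measured.

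Genes around the respiratory chain were counted from lists of assembly factors, carriers and regulators. Ppargc1b, a coactivator of mitochondrial genes, rose. It read 8.63, 8.42, 8.71 and 8.47 in control and 9.48, 9.28, 9.44 and 9.34 in starved arrays, with no overlap (0.83 ± 0.10, 1.77-fold, adjusted p = 0.000419). Its call was lost in unscaled values only (0.45, adjusted p = 0.188). Ppargc1a, the related coactivator best known from exercised muscle, was dim and differed by 0.18 ± 0.23 (adjusted p = 0.69). Tfam, which packages and transcribes mitochondrial DNA, differed by 0.10 ± 0.11, the factor Nrf1 by 0.05 ± 0.15 and the receptor Esrra by 0.32 ± 0.14, none of them called. Of the 20 tested regulators Ppargc1b was the 1 called (5%, beside 11.2% of all genes).

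Of 31 tested assembly factors, which build the complexes, 1 was called (3.23%, beside 11.2% of all genes). The arrays of the groups did not overlap for 7 of the 31 (22.6%, beside 18.5% of all genes), 5 higher and 2 lower. Pet100, needed for complex IV, changed by -0.36 ± 0.10 (adjusted p = 0.0479), and that call was lost without any one of the 8 arrays (-0.39 to -0.30, adjusted p = 0.0597 to 0.136), with no brightness filter (adjusted p = 0.056) and with eBayes without trend (adjusted p = 0.0544). None of 14 genes for coenzyme Q synthesis and cytochrome c was called, beside 11.2% of all genes. Cycs, cytochrome c itself, differed by 0.31 ± 0.11 (adjusted p = 0.0976). It passed without starved E (0.39, adjusted p = 0.0382) and when its probe sets were averaged (0.28, adjusted p = 0.0468). Of 9 tested carriers 1 was called (11.1%, beside 11.2% of all genes), and 3 did not overlap (33.3%, beside 18.5%). The called one was Vdac3, an outer membrane channel, which rose by 0.55 ± 0.11 (adjusted p = 0.00721), a call lost in unscaled values (0.20). Slc25a4, the muscle ADP/ATP carrier, differed by 0.12 ± 0.08 (adjusted p = 0.378). The mitochondrial DNA was represented by ND5 of complex I alone, which differed by 0.22 ± 0.18 (adjusted p = 0.516).

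Other sets of mitochondrial genes were laid beside the subunits. Of 74 mitochondrial ribosomal proteins 7 were called higher and none lower (9.46%, beside 11.2% of all genes), with a median change of 0.15 (-0.23 in unscaled values, where the median of all genes was -0.34). The calls of this list varied from 1 to 8 when 1 array was left out, with 1 without A, D, E or F, 2 without G and 3 without C. Mrps18a (0.52 ± 0.14), Mrpl21 (0.47 ± 0.12), Mrpl12 (0.47 ± 0.11) and Mrpl4 (0.42 ± 0.09) had the largest changes among the called ones, and in unscaled values they were 0.02 to 0.14 with no call. None of 16 citric acid cycle enzymes was called, and their changes ran from -0.07 to 0.37 with a median of 0.12 (-0.25 in unscaled values). In quantile-normalised values 60 of 74 ribosomal proteins, 14 of 16 cycle enzymes and 48 of 77 subunits lay above 0, beside 4364 of all 8352 genes. In unscaled values these were 9 of 74, 1 of 16 and 4 of 77, with the median of all genes at -0.34. Above the median of all genes lay 59 of 74, 13 of 16 and 45 of 77 in quantile-normalised values. In unscaled values 57 of 74, 13 of 16 and 51 of 77 lay above it. No test of the differences between these lists was made.

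**Figure D5:**
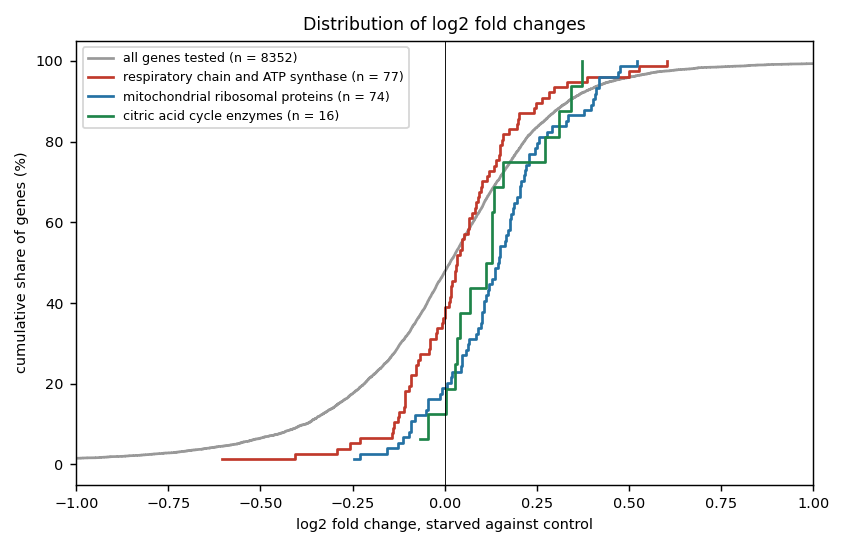
Cumulative share of genes (%) by log2 fold change of starved over control, for all 8352 genes tested, the 77 subunits, 74 mitochondrial ribosomal proteins and 16 citric acid cycle enzymes. The curve of the subunits is steeper than that of all genes around a median of 0.03, and the curves of the ribosomal proteins (median 0.15) and cycle enzymes (median 0.12) lie to its right in quantile-normalised values. In unscaled values all medians were below 0, with that of all genes lowest at -0.34. The axis ends at 1 on either side.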

How the data were processed

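RNA of 4 control and 4 starved C2C12 samples was hybridised to Affymetrix mouse arrays, 1 array per sample, and groups and letters A to H came from the labels. The deposited table holds a linear intensity per probe set. The sources used here do not give how the authors computed it. The arrays' brightness differed by 1.87 times, and their number limits the precision.

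From the deposited intensities log2 values were computed after adding an offset of 10.9 (the 10th percentile), then quantile normalised, under the assumption that signals are distributed alike in both groups. Fold changes on this log2(value + offset) scale are too small for dim genes. Without the 64 control probe sets, 13575 probe sets whose mean exceeded the 40th percentile (log2 6.61) entered the test. Names came from the platform annotation of the array, in which 20380 probe sets had 1 symbol, 691 several and 1555 none; all 79 subunit genes matched the RefSeq table of GRCm38.p6 by gene number.

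Groups were compared with limma 3.58.1 in R 4.3.3 (eBayes with an intensity trend, Benjamini-Hochberg adjustment, threshold 0.05), isoform pairs with exact permutation tests. The code was tested on simulated data. The members, lists, tests and alternatives were chosen with earlier results of these data known. Named are all called genes, the highest and lowest gene of each complex, a panel of core subunits, subunit c genes and isoform pairs, genes whose probe sets differ in sign with a call, and up to 4 called genes of each other list with 6 fixed regulators and carriers. Ndufa5, Ndufs4, Ndufc2, Ndufa13, Ndufv3, Cox7c, Cox6b2 and the gene ND5 were named after their values were seen, for completeness of small counts.

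Alternatives were other scalings (none, median or 75th percentile centring), other offsets and brightness filters, other variance models, array weights, averaging the probe sets of a gene, and leaving out each array. Genes without a probe set of their own symbol alone, among them Cox7b, Ndufa11, Ndufa4l2, Ndufb4 and Ndufs6, were not analysed here. Promoter windows came from RefSeq, and matplotlib 3.10.9 (Python 3.11.15) drew the figures.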

Additional observations from a re-analysis of the deposited data

Results flagged for a closer look

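In 82 groups of 4 arrays (the named subunits, the isoform differences and the Gapdh control ratio, in each condition), 6 had 1 array set far from the other 3 by Dixon's test, and chance flags about 1 in 20 such groups. Control B was the far array in 3 of them: Ndufs1 read 10.35 there against 9.96 to 10.02 in the other controls, Atp5g2 read 11.71 against 11.89 in each of the others, and the Gapdh 3' to 5' log2 ratio was 1.40 against -0.22 to -0.12. Sdha read 10.56 in control C against 10.36 to 10.39 in the other controls. In the starved group Cyc1 read 11.83 in array H against 11.64 to 11.67 elsewhere, and Atp5c1 read 12.12 in array E against 11.89 to 11.93. None of these genes was called.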

How the results depend on the processing

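No paired analysis was possible because no replicate letter occurs in both groups. The counts of called subunits were 5 higher and 1 lower. They were 0 and 7 in unscaled values (Atp5k, Cox7a1, Ndufa13, Ndufb2, Ndufs4, Ndufv3 and Uqcr11), 1 and 1 with median centring, 2 and 1 with 75th percentile centring, and 2 and 1 with eBayes without trend. The lower calls were 2 with the offset at the 25th percentile, with robust hyperparameters and with array weights, and 0 with no brightness filter. Leaving out 1 array gave 2 to 6 higher and 0 to 2 lower calls. The share of all genes called was 11.2% and 12.8% in unscaled values.

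In unscaled values the median change of complexes I to V was -0.33, -0.23, -0.31, -0.23 and -0.29, and that of all subunits -0.29, beside -0.34 for all genes. With 75th percentile centring it was 0.13 for complex IV and 0.069 for complex V. Leaving out 1 array moved the complex medians to between 0.00 and 0.06 for I, 0.10 and 0.18 for II, 0.04 and 0.10 for III, 0.03 and 0.10 for IV, and -0.02 (without starved E) and 0.03 for V. Ndufb10 (-0.078) and Atp5o (-0.11) had the opposite sign in unscaled values, as had Tnnt1 (0.024) with 75th percentile centring. The median of all genes was -0.34 in unscaled and 0.01 in quantile-normalised values, and Ndufb10 and Atp5o lay above it in both. The cause of these changes of sign was not tested. The isoform differences kept their direction in the 14 alternatives run; the smallest p of the exact test, adjusted over 4 pairs, is 0.0571 for the 2 separated pairs in each of them, so their side of the threshold says nothing about stability. The kept direction of these 2 pairs says little either, since most of the alternatives could not change it. The pair of Ndufa4l2 and Ndufa4 was not run. Over 36 named subunits and 19 alternatives, 630 of 682 values kept their call or lack of a call and, where called, the direction. Of the rest, 37 lost a call, 13 gained one and 2 reversed. Most values that kept their status belong to subunits that were not called. All losses and reversals fell on the 6 called subunits. The call was lost in 11 alternatives for Atp5g1, 9 for Ndufb10, 8 for Atp5o, 6 for Cox7a1, 2 for Cox8a and 1 for Cox6a2. The 2 reversals were of Ndufb10 and Atp5o. Another 49 values changed sign while passing in neither setting. Brightness limits what is shown for Cox7a1, Cox4i2 and the untested Cox7c and Cox6b2.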
